A study of Mus musculus with 106 samples.

Results

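The libraries described here are the vGluT2 RiboTag immunoprecipitates (IPs) from the cerebellum and the cerebrum of mice that model Huntington's disease (HD), read for whether the HD genotype acts differently in the excitatory neurons of the 2 regions. They were chosen by their labels, as every IP of the vGluT2 line from either region, and number 23 of the series' 106 libraries. HD mice carried Hdh Q7/Q200 and control mice Hdh Q7/Q7, all on the 129S4 background and 9 months old. Every mouse was also heterozygous for vGluT2-IRES-Cre, a Cre inserted at *Slc17a6*, and for the RiboTag allele, which adds an HA tag to the ribosomal protein Rpl22 wherever Cre has acted. RNA bound to tagged ribosomes was pulled down from homogenates of a flash-frozen hemisphere, and the cerebrum here means the brain without the cerebellum and the olfactory bulb. There were 5 control and 6 HD cerebellar IPs, and 6 control and 6 HD cerebral IPs. Of the 12 mice, 11 gave both IPs (5 control and 6 HD), and control mouse 6 gave a cerebral IP only. The knock-in carries a very long CAG repeat in a single allele, Cre acts once and for good so that the tag also marks neurons that expressed *Slc17a6* only while young, and each IP pools all such neurons of a region.

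vGluT2 loads glutamate into synaptic vesicles, and in the cerebrum it is typical of the neurons of the thalamus and other deep nuclei, while cortical neurons mostly use vGluT1. In the cerebellum, granule cells express vGluT2 as they mature and vGluT1 as adults, and the deep nuclei and unipolar brush cells also use glutamate. HD is caused by a longer CAG repeat in huntingtin, which is made in nearly all cells, and the striatum is the region classically lost.

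Total counts of the 23 IPs, summed before each gene's count was rounded, ran from 29903373 to 68022516, with a median of 39654798. Control cerebellar IPs had 34229866 to 40085606 counts (median 36498930) and HD cerebellar IPs 30077307 to 44073936 (median 37796761). Control cerebral IPs had 29903373 to 68022516 counts (median 36255033) and HD cerebral IPs 33195170 to 60611448 (median 40790141). The 4 groups overlapped in depth. Levels below are CPM, counts relative to a library's total after TMM scaling, and effects are log2 ratios of HD to control with their standard error (SE). The difference between regions is the log2 effect in the cerebellum minus that in the cerebrum, estimated within mice, and a gene is called when its adjusted p is at most 0.05.

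Marker levels placed the libraries in the regions of their labels. *Slc17a7*, which encodes vGluT1, was at 1563, 1192, 1248, 1354 and 1080 CPM in the cerebellar IPs of control mice 1 to 5. In HD cerebellar IPs it ran from 958 to 1550 CPM (median 1136). Cerebral IPs held 1779 to 2407 CPM in controls (median 2052) and 1678 to 2873 CPM in HD mice (median 1954), above all cerebellar IPs. *Gabra6*, the GABA-A receptor subunit of granule cells, was at 1199, 1376, 1123, 1307 and 1006 CPM in control cerebellar IPs and at 681.6 to 1174 CPM in HD ones (median 944.1). No cerebral IP exceeded 8.32 CPM of *Gabra6*. The cortical factor *Neurod6* went the other way, with at most 3.30 CPM in any cerebellar IP.

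*Slc17a6* itself, which drives the Cre, was low in the cerebellum. Control cerebellar IPs had 21.0, 43.3, 21.3, 23.04 and 108 CPM of it, and HD ones 7.97 to 67.9 CPM (median 18.6). Control mouse 5 and HD mouse 5 stood above the others of their groups. In cerebral IPs *Slc17a6* was at 43.5 to 153 CPM in controls (median 120.8) and at 79.2 to 156 CPM in HD mice (median 88.0).

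Some libraries went against their labels or stood apart. The summed level of the Y-linked genes *Ddx3y*, *Uty*, *Kdm5d* and *Eif2s3y* should be near 0 or well above it in both IPs of a mouse. Control mouse 1 had 0 CPM in its cerebellar IP and 30.8 CPM in its cerebral IP. Control mouse 3 had 108 CPM in the cerebellar and 0 CPM in the cerebral IP. Control mouse 4 had 0 CPM of these genes and 31.1 CPM of *Xist* in its cerebellar IP, but 69.6 CPM of the Y-linked genes in its cerebral IP. Such a difference was seen in 3 of the 5 control mice with both IPs, in 0 of the 6 HD mice and in 0 of the 24 mice of the Gad2, PV and SST lines with at least 2 libraries. Both total RNA libraries of control mouse 4 had Y-linked reads, 96.1 CPM in the cerebellum and 20.6 CPM in the cerebrum, unlike its cerebellar IP. The mouse behind each of these 3 pairs is thus in doubt, and the regional differences of most called genes are given with and without control mice 1, 3 and 4. Within-mouse ranges are over all 5 control pairs. The pairs of control mice 2 and 5, which that fit keeps, have no Y-linked reads in either IP and cannot be checked in this way. The same limit holds for HD mice 1, 2, 4 and 6, with at most 0.0265 CPM of these genes in either IP. Only HD mice 3 and 5 had Y-linked reads to compare. Deviations from the group means, correlated across 13771 genes, did not single out their own labels throughout. The cerebellar IP of control mouse 2 had r = 0.18 with its own cerebral IP and 0.28 with that of control mouse 3. That of control mouse 5 had r = 0.04 with its own cerebral IP, −0.26 with its own cerebellar total RNA and 0.56 with that of control mouse 6. Genes are not independent replicates, and no library was given another label. All 5 control pairs are thus uncertain, and the fit with no block for the mouse is the one that uses none of them. HD mouse 6 stood apart in quality, with 16122 genes detected in its cerebellar and 14443 in its cerebral IP against 18006 in the cerebral IP of control mouse 6 and 19212 to 22395 in all other IPs. Genes that do not code for protein took 8.31% of its cerebellar and 18.2% of its cerebral counts, and its cerebral library was sequenced again in a second run. The study reports longer reads for libraries sequenced again than for the rest. The part of read length in these values was not tested.

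**Figure D1:**
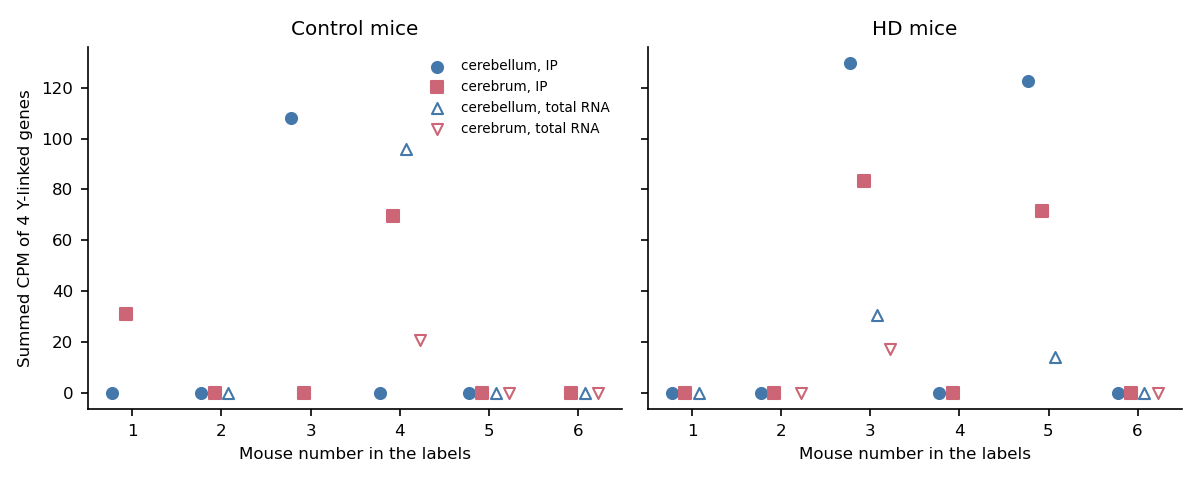
Summed CPM of 4 Y-linked genes in the vGluT2 IPs of each mouse, by mouse number (x axis), with controls and HD mice in separate panels. Control mice 1, 3 and 4 have Y-linked reads in 1 of their IPs only, and no HD mouse does.

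The HD effect differed between the regions for 32 of 14264 protein-coding genes tested, or 0.224%, by edgeR's quasi-likelihood test with the mouse as a block. For 18 genes the effect was higher in the cerebellum, by 0.66 to 2.06 on the log2 scale, and for 14 it was lower, by −2.06 to −0.84. The median over all genes tested was 0.03. An unadjusted p under 0.05 was reached by 1294 genes. The within-mouse differences of HD and control mice did not overlap for any of the 32. These genes were called by a test of the same differences, so the lack of overlap is no separate evidence. Largest upward were *Ccnd1*, *Otof* and *Zfpm1*, and largest downward *Cplx3*, *Rprml* and *Stum*. Without control mice 1, 3 and 4, edgeR called 1 gene, *Igfbp5*, while all 32 kept their sign and had an unadjusted p under 0.05, as 808 genes did. Leaving out 1 mouse at a time gave 11 to 32 calls: 21, 19, 16 and 18 without control mouse 1, 2, 3 or 4, and 14, 12, 15 and 11 without HD mouse 1, 3, 4 or 5. Without HD mouse 6 there were 32 calls, 25 of them the same genes, and without control mouse 5 also 32, with 22 the same. In all of these fits 10 of the 32 were called each time. DESeq2 called 221. With no block for the mouse, edgeR called 45 of 14253 genes (0.316%) in the 23 libraries, 22 higher and 23 lower, a fit that uses no pairs. It called 28 of the 32, and not *Dusp5* (adjusted p = 0.0801), *Nav3* (0.134), *Ephb1* (0.102) or *Alad* (0.0714). Bulk samples cannot tell fewer cells of a type from less RNA per cell, here and in all that follows.

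**Figure D2:**
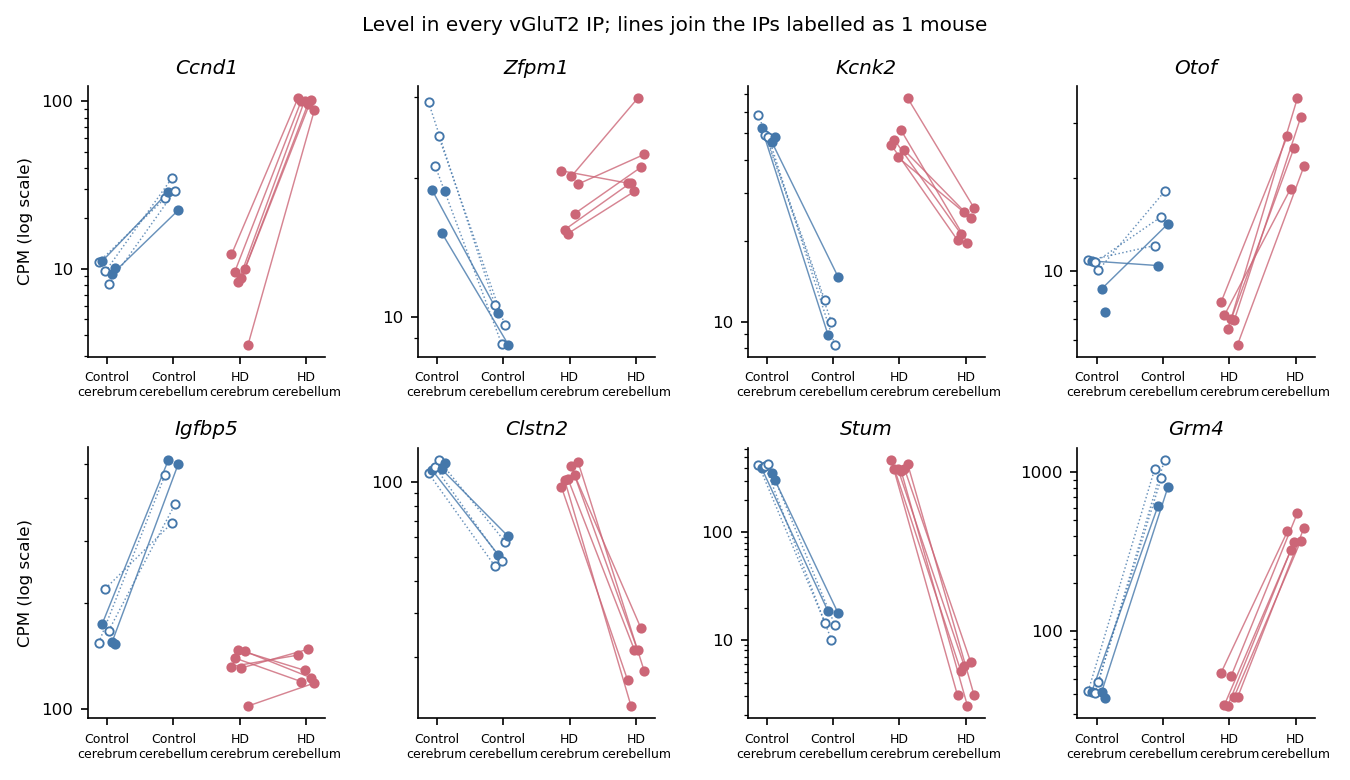
CPM (log scale) of 8 genes in the 23 vGluT2 IPs, by region and genotype, with lines joining the IPs of 1 mouse and open points with dotted lines for control mice 1, 3 and 4. In the cerebellar IPs, HD and control points of all 8 genes are apart, and in the cerebral IPs only those of *Igfbp5* are.

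*Ccnd1* (chr7:144929931-144939925, minus strand, GRCm38) encodes cyclin D1, which activates CDK4 and CDK6 at the start of the cell cycle. Its level was 26.4, 28.8, 34.7, 29.2 and 22.4 CPM in control cerebellar IPs, and 89.0 to 104 CPM in HD ones (median 101). Cerebral IPs had 8.08 to 11.1 CPM in controls (median 9.85) and 3.52 to 12.2 CPM in HD mice (median 9.21). All 6 HD cerebellar IPs were above every control one, and the cerebral groups overlapped. *Ccnd1* rose by 1.80 in the cerebellum (SE 0.118, adjusted p = 5.24e-06), its cerebral effect was −0.17 (SE 0.225, adjusted p = 0.829), and the difference between the regions was 2.06 (SE 0.247, adjusted p = 0.00648). Within mice, the log2 difference of cerebellum and cerebrum was 1.27 to 1.85 in controls and 3.09 to 4.64 in HD mice. Without control mice 1, 3 and 4 the regional difference of *Ccnd1* was 2.21. Some of its exon bases also belong to *LTO1*, and how many of its counts are uncertain for that reason was not measured. Of 26 tested regulators of the step from G1 to S phase, *Ccnd1* was the 1 call in the regional difference, DESeq2 called 2, 5 had an unadjusted p under 0.05 and the list's median was 0.09, against 0.224% called and a median of 0.03 for all genes. In the cerebellum 2 of 25 were called and 6 had an unadjusted p under 0.05, against 2.09% called for all genes. Besides *Ccnd1* this was *Plk5*, a neuronal polo-like kinase, whose effect was −1.11 (adjusted p = 0.0321). The groups of *Plk5* overlapped, and it was called in 5 of 11 fits that left out 1 library, with adjusted p from 0.000221 to 0.0859 over 18 alternatives.

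The polycomb repressive complexes PRC1 and PRC2 bind and write methylated histone H3. *Cbx2*, a chromobox subunit of PRC1, rose by 1.09 in the cerebellum (adjusted p = 0.0102), but its regional difference of 1.47 (SE 0.845) did not pass (edgeR's adjusted p = 0.652). That value rests on HD mouse 6, whose cerebral IP held 0 CPM of *Cbx2*, with a within-mouse difference of 6.29 against 1.60 to 1.98 in the other HD mice and 0.50 to 1.14 in controls. Without HD mouse 6 the regional difference of *Cbx2* was 0.96 (adjusted p = 0.185, the lowest of 23 alternatives, with 0.959 the highest). None of 13 subunits of PRC2 was called in the regional difference by edgeR or DESeq2, 0 had an unadjusted p under 0.05 and the list's median was 0.05. For all genes, 0.224% were called by edgeR, 1294 of 14264 had an unadjusted p under 0.05 and the median was 0.03.

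*Zfpm1* (chr8:122282141-122337251, plus strand) encodes FOG1, a zinc finger cofactor of GATA factors. Control cerebellar IPs had 10.6, 10.2, 8.74, 9.58 and 8.71 CPM of it, and HD ones 18.7 to 29.8 CPM (median 20.3). In the cerebrum, controls had 15.2 to 29.1 CPM (median 20.0) and HD mice 15.2 to 20.7 CPM (median 18.1). HD cerebellar IPs thus reached the cerebral range, which the control ones were all below. *Zfpm1* rose by 1.18 in the cerebellum (SE 0.140, adjusted p = 0.000558), had an effect of −0.24 in the cerebrum (SE 0.144, adjusted p = 0.663) and differed between regions by 1.44 (SE 0.174, adjusted p = 0.00648), or by 1.08 without the doubted mice. Among the downward differences, *Nab2*, a corepressor of the EGR factors, fell by 1.05 in the cerebellum against 0.01 in the cerebrum, and the regional difference was −1.01 (adjusted p = 0.00682), with the same sign and an unadjusted p of 0.000318 without the doubted mice (edgeR's adjusted p = 0.253, the highest of 23 alternatives, with 2.76e-11 the lowest). *Nab2* shares exon bases with *Stat6*, *Nemp1* and *Gm16229*.

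Genes of vesicle release went both ways. *Otof* (chr5:30367062-30461932, minus strand) encodes otoferlin, the calcium sensor of release in inner hair cells. It was at 12.1, 10.4, 15.0, 18.1 and 14.2 CPM in control cerebellar IPs and at 18.5 to 36.1 CPM in HD ones (median 26.1). Cerebral IPs went the other way, with 7.39 to 10.8 CPM in controls (median 10.4) and 5.79 to 7.92 CPM in HD mice (median 6.97). The cerebellar groups touched but did not overlap, and the cerebral groups overlapped. *Otof* rose by 0.93 in the cerebellum (SE 0.183, adjusted p = 0.0175), its cerebral effect was −0.49 (SE 0.137, unadjusted p = 0.00289, adjusted p = 0.639), and the difference was 1.49 (SE 0.222, adjusted p = 0.0151), or 1.56 without the doubted mice. It was the 1 call among 22 calcium sensors of exocytosis by edgeR, and DESeq2 also called 1. Of the 22, 5 had an unadjusted p under 0.05 and the median was 0.07, against 0.224% called and a median of 0.03 for all genes. In the cerebellum 3 of the 22 were called, against 2.09% of all genes. *Syt7*, a sensor of slow release, fell by 0.53 (adjusted p = 0.0138). It was called in 11 of 11 fits that left out 1 library and in 17 of 18 alternatives, with adjusted p up to 0.113. *Doc2b*, with −0.55 (adjusted p = 0.0321), was called in 4 of these 11 and in 10 of 18 alternatives, with adjusted p from 0.00188 to 0.0828. Neither passed for the regional difference.

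*Cplx3* (chr9:57599992-57606281, minus strand) encodes a complexin, a clamp of SNARE-driven fusion, and was scarce in the cerebellum. Its level was 5.15, 1.66, 4.12, 1.32 and 1.78 CPM in control cerebellar IPs and 0.245 to 0.593 CPM in HD ones (median 0.462). Cerebral IPs held 18.3 to 28.6 CPM in controls (median 22.3) and 13.4 to 21.1 CPM in HD mice (median 15.9). Both regions were lower in HD mice by median, but only the cerebellar groups were apart. *Cplx3* fell by 2.69 in the cerebellum (SE 0.418, adjusted p = 0.00409) against −0.40 in the cerebrum (SE 0.124, adjusted p = 0.650), and its regional difference was −2.06 (SE 0.376, adjusted p = 0.0449), a call made in 10 of 23 alternatives, or −1.63 without the doubted mice. It was the 1 call among 33 genes of the fusion machinery by edgeR, DESeq2 called 3, 5 had an unadjusted p under 0.05 and the median was 0.10, against 0.224% called and a median of 0.03 for all genes. In the cerebellum 3 of the 33 were called, DESeq2 called 6, 9 had an unadjusted p under 0.05 and the median was −0.11, against 2.09% and −0.01. Besides *Cplx3*, *Snap25* fell by 0.70 (adjusted p = 0.00674) and *Vamp1* by 0.56 (adjusted p = 0.0335), with groups that overlapped for *Vamp1*, while *Cplx2* with −0.42 (adjusted p = 0.0544) did not pass and *Vamp2* had a regional difference of −0.02.

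*Igfbp5* (chr1:72857932-72874884, minus strand) encodes a secreted protein that binds insulin-like growth factors. Control cerebellar IPs held 465, 512.6, 338, 383.5 and 500 CPM, and HD ones 118 to 147.6 CPM (median 125.5). Cerebral IPs held 152.9 to 220 CPM in controls (median 160.8) and 101.7 to 147.1 CPM in HD mice (median 135.6). In both regions every HD IP was below every control IP, and the gap was wider in the cerebellum. *Igfbp5* fell by 1.77 in the cerebellum (SE 0.126, adjusted p = 7.71e-06), with −0.35 in the cerebrum (SE 0.119, unadjusted p = 0.00983, adjusted p = 0.650) and a regional difference of −1.36 (SE 0.187, adjusted p = 0.0096). Within mice, cerebellum minus cerebrum was 0.62 to 1.69 in controls and −0.25 to 0.22 in HD mice. Without control mice 1, 3 and 4 the regional difference was −1.69 (edgeR's adjusted p = 0.0237), and over 23 alternatives its adjusted p ran from 2.48e-08 to 0.0496. Of 16 genes of the IGF system tested, *Igfbp5* was the 1 call by edgeR and by DESeq2, 2 had an unadjusted p under 0.05 and the median was 0.11, against 0.224% called and a median of 0.03 for all genes.

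*Clstn2* (chr9:97444395-98033181, minus strand) encodes calsyntenin-2, a postsynaptic cadherin-like protein. It was at 46.0, 51.1, 48.4, 57.7 and 60.5 CPM in control cerebellar IPs and at 12.7 to 26.0 CPM in HD ones (median 19.4). Cerebral IPs had 108 to 122 CPM in controls (median 113) and 95.5 to 120.3 CPM in HD mice (median 104.4). The cerebellar groups were far apart and the cerebral groups overlapped. It fell by 1.47 in the cerebellum (SE 0.160, adjusted p = 0.000385), against −0.10 in the cerebrum, with a regional difference of −1.40 (SE 0.164, adjusted p = 0.00648), or −1.54 without the doubted mice. Upward, the cadherin *Cdh20* had a regional difference of 1.14 (adjusted p = 0.0335), *Slitrk3*, a synaptic adhesion protein, of 1.06 and *Ephb1*, an ephrin receptor, of 0.66. Without the doubted mice they had 0.97, 0.79 and 0.67, and they were called in 10, 13 and 15 of 23 alternatives. *Parva*, which links integrins to actin, rose by 0.78 in the cerebellum, against −0.06 in the cerebrum, and differed by 0.88 (adjusted p = 0.00682), or 0.84 without the doubted mice.

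*Grm4* (chr17:27422387-27521403, minus strand) encodes mGluR4, the metabotropic glutamate receptor of granule cell terminals. Control cerebellar IPs had 1050, 614.5, 921.5, 1201 and 807.7 CPM, and HD ones 322.7 to 554.4 CPM (median 397.3). Cerebral IPs had 38.1 to 48.0 CPM in controls (median 41.3) and 33.8 to 54.6 CPM in HD mice (median 38.6). All HD cerebellar IPs were below the control ones, and the cerebral ranges lay within one another. The effect was −1.16 in the cerebellum (SE 0.171, adjusted p = 0.00288) and 0.00 in the cerebrum, and the difference −1.09 (SE 0.153, adjusted p = 0.0106), or −0.82 without the doubted mice. *Grm4* was the 1 call among 10 genes on the list of metabotropic glutamate receptors, by edgeR and by DESeq2, against 0.224% of all genes, and the only one of them with an unadjusted p under 0.05. The list's median regional difference was −0.27, against 0.03 for all genes, and its cerebellar and cerebral medians were −0.58 and −0.32. Of 29 ionotropic glutamate receptor genes, 0 were called in the regional difference by edgeR or DESeq2, 2 had an unadjusted p under 0.05 and the median was −0.00, while *Grik5* rose by 0.54 in the cerebellum. None of 15 GABA-A receptor genes was called by either tool, with 0 at an unadjusted p under 0.05 and a median of −0.35.

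*Stum* (chr1:180432387-180483504, minus strand) encodes a membrane protein named after a fly gene of mechanical sensing. It was at 14.5, 18.4, 10.01, 13.8 and 17.8 CPM in control cerebellar IPs and at 2.43 to 6.19 CPM in HD ones (median 4.10). In cerebral IPs it was at 307 to 436.5 CPM in controls (median 405) and at 373 to 473.5 CPM in HD mice (median 392). *Stum* fell by 1.81 in the cerebellum (SE 0.258, adjusted p = 0.00232), against 0.07 in the cerebrum, and its regional difference was −1.85 (SE 0.285, adjusted p = 0.0179), or −2.30 without the doubted mice. *Rprml* (chr11:103649570-103650579, plus strand), related to the cell cycle inhibitor reprimo, was at 8.40, 5.15, 4.09, 3.60 and 9.29 CPM in control and 1.22 to 2.38 CPM in HD cerebellar IPs (median 1.80). Its cerebral IPs held 60.6 to 159.6 CPM in controls (median 89.1) and 73.4 to 135.4 CPM in HD mice (median 94.3). Like *Stum* and *Cplx3*, *Rprml* was thus scarce in the cerebellum and plentiful in the cerebrum. *Rprml* fell by 1.80 in the cerebellum (adjusted p = 0.00554), with 0.12 in the cerebrum and a regional difference of −1.88 (SE 0.287, adjusted p = 0.0179), or −2.46 without the doubted mice. Over 23 alternatives *Stum* was called in 18 and *Rprml* in 15.

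A potassium channel and a calcium pump rose in the cerebellum. *Kcnk2* (chr1:189207930-189402273, minus strand) encodes TREK-1, a background potassium channel. It was at 12.0, 8.91, 9.98, 8.23 and 14.7 CPM in control cerebellar IPs and at 19.7 to 26.4 CPM in HD ones (median 22.7). Its cerebral levels of 46.6 to 58.6 CPM in controls (median 49.1) and 40.8 to 67.5 CPM in HD mice (median 46.3) overlapped. The effect was 1.08 in the cerebellum (adjusted p = 0.00284) and −0.04 in the cerebrum, and the difference 1.18 (SE 0.189, adjusted p = 0.0240), a call made in 14 of 23 alternatives, or 0.97 without the doubted mice. It shares exon bases with *A430027H14Rik*. Of 39 potassium channel genes, *Kcnk2* was the 1 call in the regional difference by edgeR, DESeq2 called 3, 12 had an unadjusted p under 0.05 and the median was −0.10. Over all genes 0.224% were called, 1294 of 14264 had an unadjusted p under 0.05 and the median was 0.03. In the cerebellum *Kcnip4* fell by 0.92. *Kcnh3* fell by 2.76 there (adjusted p = 0.0102), and its regional difference was −2.59 (edgeR's adjusted p = 0.0687). It was scarce in cerebellar IPs, at 0.686 to 4.49 CPM in controls, highest in mouse 5, and 0.133 to 0.499 CPM in HD mice. Cerebral IPs held 136.5 to 232.5 CPM of *Kcnh3* in controls and 133.4 to 196.5 CPM in HD mice. With no block for the mouse, edgeR called *Kcnh3* in the regional difference, with −2.78 (adjusted p = 0.00511). *Kcnh3* shares exon bases with *Mcrs1*. Of 27 sodium and calcium channel genes 0 were called in the regional difference by edgeR and 2 by DESeq2, 8 had an unadjusted p under 0.05 and the median was 0.10.

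*Atp2b4*, a plasma membrane calcium pump, was at 20.1, 29.9, 23.2, 37.3 and 37.0 CPM in control cerebellar IPs and at 53.7 to 61.1 CPM in HD ones (median 55.7). Cerebral IPs had 259 to 362 CPM in controls (median 316) and 250 to 309 CPM in HD mice (median 266.6). All 6 HD cerebellar IPs were above the controls. *Atp2b4* rose by 0.94 in the cerebellum (SE 0.149, adjusted p = 0.00444), had −0.19 in the cerebrum and differed by 1.21 (SE 0.158, adjusted p = 0.00682), or 0.96 without the doubted mice. It shares exon bases with *Mir6903*. Signalling genes among the downward calls were *Dusp5*, a phosphatase of nuclear ERK, and *Chn2*, whose product switches off the GTPase Rac. *Dusp5* was at 182.5, 138.5, 133, 194.6 and 157.2 CPM in control cerebellar IPs and at 52.7 to 121 CPM in HD ones (median 73.3). It fell by 1.11 there (adjusted p = 0.00926), with 0.05 in the cerebrum and a regional difference of −1.21 (adjusted p = 0.0438), or −0.98 without the doubted mice. The regional difference of *Dusp5* was called in 7 of 23 alternatives and in 1 of 11 fits that left out 1 mouse, with adjusted p from 4.75e-05 to 0.687. It shares exon bases with *AC137853.2*.

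Further calls are given by their regional differences, with the value without the doubted mice in brackets. Upward were *Fam163b* with 1.21 (0.83), *Spef1* with 1.20 (1.14), *Gpr153* with 1.20 (0.94), the apoptosis activator *Hrk* with 1.05 (1.08) and *Lrtm2* with 0.74 (0.56), called in 10, 10, 21, 14 and 8 of 23 alternatives. Downward were *Tppp3* with −1.23 (−1.14), *1500009L16Rik* with −1.22 (−1.25), *Reep6* with −1.21 (−1.21) and *Alad*, an enzyme of haem synthesis, with −0.93 (−0.85), called in 14, 11, 20 and 9. *Spef1* shares exon bases with *Cdc25b*, *Cenpb* and *Gm14232*.

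The effect pointed in opposite directions, with an unadjusted p under 0.05 in each region, for 8 of the 32. They were *Otof*, *Gpr153*, *Mapk4*, *Maml3* and *Nav3*, higher in HD mice in the cerebellum and lower in the cerebrum, and *Tppp3*, *Chn2* and *Ggact*, the reverse. The 32 were called for a difference between regions in these libraries, which favours opposite signs, and 28 of them had such signs. The share of all genes that meet the same rule was not counted. *Tppp3*, which binds tubulin, was at 154.6, 105.7, 114.5, 106.2 and 98.3 CPM in control cerebellar IPs and at 54.5 to 95.1 CPM in HD ones (median 68.3). In the cerebrum it was at 32.7 to 49.9 CPM in controls (median 41.9) and at 41.9 to 73.0 CPM in HD mice (median 59.6). *Tppp3* fell by 0.71 in the cerebellum (adjusted p = 0.0421), and its cerebral effect was 0.54 (unadjusted p = 0.00121). *Gpr153*, an orphan receptor, had 12.6, 11.3, 12.1, 9.81 and 14.9 CPM in control and 16.4 to 24.9 CPM in HD cerebellar IPs (median 20.6). Cerebral IPs had 23.7 to 33.7 CPM in controls (median 27.7) and 17.1 to 27.96 CPM in HD mice (median 18.9). *Gpr153* rose by 0.77 in the cerebellum (adjusted p = 0.0116), and its cerebral effect was −0.44 (unadjusted p = 0.00434). *Chn2* had 2482, 2236, 2096, 2160 and 2114 CPM in control and 1383 to 1597 CPM in HD cerebellar IPs (median 1544). It fell by 0.56 there. Cerebral IPs had 21.97 to 31.21 CPM in controls (median 27.81) and 26.73 to 39.46 CPM in HD mice (median 32.82). These cerebral groups overlapped. The cerebral effect of *Chn2* was 0.27 (edgeR's unadjusted p = 0.0403). HD mice 1 and 4 had its highest cerebral levels, 39.46 and 38.3 CPM. Their cerebral IPs also had the most of the granule cell genes *Gabra6* (8.322 and 6.327 CPM) and *Cbln3* (30.56 and 27.18 CPM). The part of granule cell RNA in this cerebral effect was not tested. *Maml3*, a Notch coactivator, had effects of 0.37 and −0.49, *Mapk4* of 0.39 and −0.27, *Nav3* of 0.35 and −0.37, and *Ggact* of −0.43 and 0.43 in the cerebellum and the cerebrum. Without the doubted mice the regional differences of *Chn2*, *Maml3*, *Mapk4*, *Nav3* and *Ggact* were −0.77, 1.18, 0.45, 0.69 and −0.67, against −0.84, 0.95, 0.71, 0.74 and −0.86 with them, called in 9, 8, 6, 4 and 11 of 23 alternatives. *Chn2* shares exon bases with *9130019P16Rik* and *Gm15527*, and *Ggact* with *Pcca* and *4930594M22Rik*. None of the 8 cerebral effects passed edgeR's adjustment. In the cerebellum *Mapk4* (adjusted p = 0.0954), *Maml3* (0.177), *Nav3* (0.233) and *Ggact* (0.152) did not pass either, so for these 4 neither region's effect was a call, and without control mice 1, 3 and 4 none of the 8 regional differences did.

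**Figure D3:**
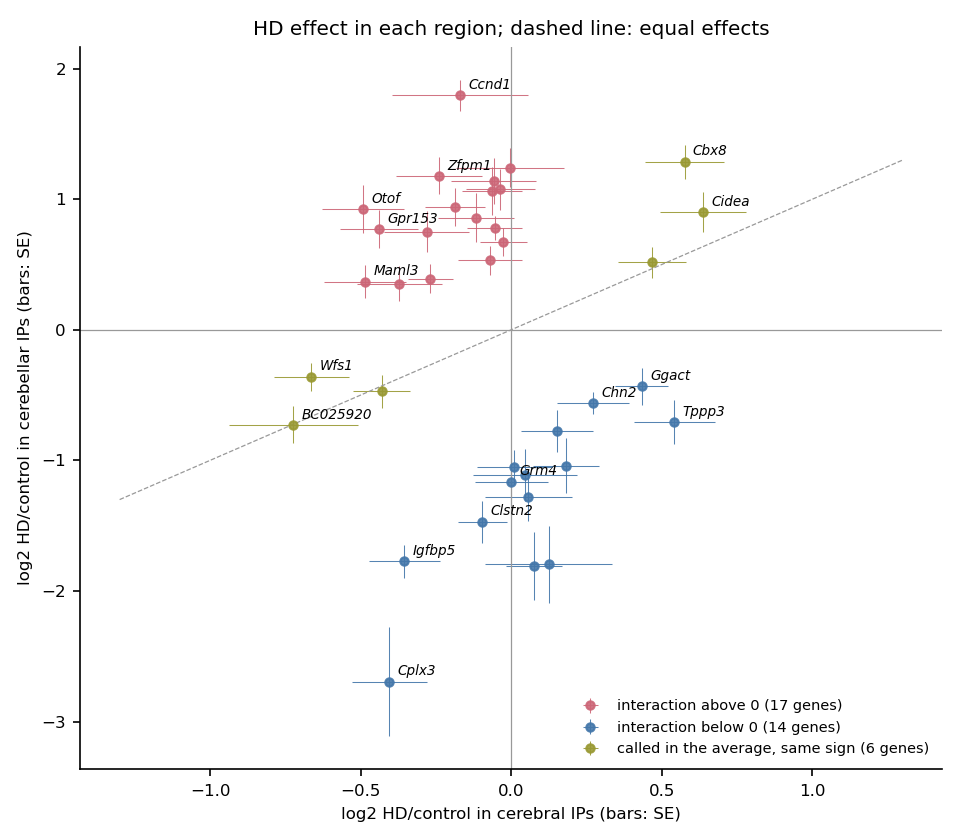
Log2 HD effect in the cerebral (x axis) and cerebellar (y axis) IPs for 31 genes called in the regional difference and 6 genes called in the average over regions with the same sign in both, with SE bars and a dashed line where the effects are equal. Of the 31 genes called in the regional difference, the 17 with a higher effect in the cerebellum lie above the line and the 14 with a lower one below it.

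Within each region the genotype was also tested alone, in libraries that the regional difference shares. In the cerebellum edgeR called 282 of 13487 genes (2.09%), 130 upward and 152 downward. The median effect over all genes was −0.01, and 2082 genes had an unadjusted p under 0.05. Leaving out 1 library gave 154 to 275 cerebellar calls, with 154, 178, 168 and 183 without control mouse 1, 2, 3 or 4, 155 without HD mouse 1, 177 without HD mouse 5, and 210 without HD mouse 6. DESeq2 called 663. In the cerebrum edgeR called 0 of 14354 genes (0.0%), 1092 had an unadjusted p under 0.05, and DESeq2 called 25, of which 7 were higher and 18 lower. Without HD mouse 6, or without control mouse 5, edgeR called 1 cerebral gene. Precision was alike, with a median SE of 0.161 in the cerebellum and 0.168 in the cerebrum. The median size of the effect was 0.18 and 0.17 over all genes.

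*Htt* itself was lower in HD mice in the cerebral IPs. Its cerebral level was 64.2 to 86.5 CPM in controls (median 78.2) and 47.3 to 53.3 CPM in HD mice (median 49.6), and the groups did not overlap. In control cerebellar IPs *Htt* was at 78.5, 94.2, 93.5, 126.9 and 97.6 CPM, and in HD ones at 63.0 to 93.9 CPM (median 79.7). Its effect was −0.62 in the cerebrum (SE 0.0858, edgeR's adjusted p = 0.0587) and −0.31 in the cerebellum (adjusted p = 0.267), and the regional difference of 0.33 did not pass (adjusted p = 0.584). The cerebral effect was called in 3 of 19 alternatives, DESeq2 among them, with adjusted p from 9.02e-09 to 0.307 and log2 effects of −0.66 to −0.58. Averaged over the regions *Htt* fell by 0.46 (limma voom, adjusted p = 0.0135). None of 15 genes for huntingtin and its partners, *Htt* included, was called in the regional difference by edgeR and 1 by DESeq2, with 2 at an unadjusted p under 0.05 and a median of 0.13. Beside this, edgeR called 0.224% of all genes, 1294 of 14264 had an unadjusted p under 0.05 and the median was 0.03.

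Averaging the regions, with the mouse as a random effect, limma voom called 121 of 14253 genes (0.849%), 62 higher and 59 lower in HD mice, and the median over all genes was −0.04. Without control mice 1, 3 and 4 it called 40, and without HD mouse 6 it called 119. Leaving out 1 mouse gave 40 to 195 calls, with 195, 40, 52 and 80 without control mouse 1, 2, 3 or 6, and 65, 70 and 61 without HD mouse 1, 4 or 5. Of the 121 calls, 17 were also called in the regional difference. A set of 6 genes was called in this average and not in the regional difference, with the same sign in both regions and groups that overlapped in neither. A regional difference that missed the threshold does not show that their effects were equal. They were picked by that lack of overlap, in libraries the average used, so it is no separate evidence. The share of all genes tested that were apart in both regions was not counted. *Cbx8*, also a chromobox subunit of PRC1, was at 22.9, 22.7, 24.2, 17.1 and 19.2 CPM in control cerebellar IPs and at 41.1 to 62.9 CPM in HD ones (median 52.1). Cerebral IPs had 14.4 to 17.98 CPM in controls (median 15.6) and 18.5 to 30.0 CPM in HD mice (median 22.1). The averaged effect was 0.93 (limma voom, adjusted p = 3.45e-05), from 1.29 in the cerebellum and 0.58 in the cerebrum. Its regional difference was 0.77 (SE 0.166, edgeR's adjusted p = 0.0956), called in 2 of 23 alternatives with adjusted p from 0.0036 to 0.758, and cerebellum minus cerebrum within mice was 0.17 to 0.54 in controls and 0.77 to 1.60 in HD mice, which do not overlap. For the other 5 genes the within-mouse differences overlapped. *Cidea*, a lipid droplet protein, rose by 0.77 and *Selenoo*, a mitochondrial selenoprotein, by 0.51 in the average. *Wfs1*, the wolframin gene, was at 39.1, 36.1, 37.5, 40.5 and 48.4 CPM in control and 26.5 to 35.6 CPM in HD cerebellar IPs (median 32.0). Its cerebral IPs had 169 to 259 CPM in controls (median 203) and 109 to 167.5 CPM in HD mice (median 121). *Wfs1* fell by 0.51 in the average (limma voom, adjusted p = 0.0142), *Net1* by 0.45 and *BC025920* by 0.71. The averaged effects of *Cidea*, *Selenoo*, *Wfs1*, *Net1* and *BC025920* were called in 17, 16, 17, 16 and 16 of 18 alternatives. The highest adjusted p among them was 0.226, for *Net1*. *Selenoo* shares exon bases with *Tubgcp6* and *BC025920* with *Gm26896*.

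Genes known from the striatum in HD made up a further list. Of 24 tested, 0 were called in the regional difference by edgeR and 2 by DESeq2, 5 had an unadjusted p under 0.05 and the median was −0.04. Among all genes edgeR called 0.224%, 1294 of 14264 had an unadjusted p under 0.05 and the median was 0.03. In the cerebrum the list had 0 calls by edgeR and 4 by DESeq2, 9 members at an unadjusted p under 0.05 and a median of −0.21, against −0.01 for all genes. An unadjusted p under 0.05 was reached there by 1092 of 14354 genes. In the cerebellum 2 of 21 fell, with a median of −0.32, against 2.09% called and a median of −0.01 for all genes. They were *Ppp1r1b*, which encodes DARPP-32 and fell by 0.62 (adjusted p = 0.0214, called in 15 of 18 alternatives), and *Rasd2*, a small GTPase, which fell by 1.07 (adjusted p = 0.00222). The regional difference of *Rasd2* was −0.78 (edgeR's adjusted p = 0.0833). With no block for the mouse, edgeR called *Rasd2* in the regional difference, with −0.85 (adjusted p = 0.0389). *Ppp1r1b* had −0.53 in the cerebrum and fell by 0.55 in the average (limma voom, adjusted p = 0.00956). *Arpp21* fell by 0.28 in the average (adjusted p = 0.0448), with a regional difference of 0.39 (adjusted p = 0.316). The regional differences of *Drd1*, *Drd2*, *Penk*, *Pde10a* and *Pcp4* did not pass. *Drd2* was at 10.8 CPM in the cerebellar IP of control mouse 5 and at 0.575 to 1.27 CPM in the other control ones, and its regional difference of −1.32 ran from −1.82 to −0.69 as 1 mouse was left out, with −0.69 without control mouse 5.

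Other gene groups held few or no calls in the regional difference. Among all genes edgeR called 0.224%, 1294 of 14264 had an unadjusted p under 0.05 and the median was 0.03. The cerebellar calls named here are 1 of 23 immediate early, 2 of 17 circadian and 3 of 24 sterol synthesis genes, against 2.09% of all genes. Of 24 immediate early genes 0 were called by edgeR and 1 by DESeq2, with 4 at an unadjusted p under 0.05 and a median of 0.01, while *Ier5* rose by 0.85 in the cerebellum. Of 17 circadian genes 0 were called by edgeR and 1 by DESeq2, with 3 at an unadjusted p under 0.05 and a median of −0.04. In the cerebellum the circadian repressor *Bhlhe40* fell by 0.74 (adjusted p = 0.00926) and *Hlf* by 0.65 (adjusted p = 0.0254). Of 24 sterol synthesis genes edgeR called 0 and DESeq2 1, with 3 at an unadjusted p under 0.05 and a median of 0.12, and in the cerebellum *Lss* rose by 0.53, *Mvd* rose by 0.71 and *Ebp* fell by 0.54. Of 25 chaperones edgeR called 0 and DESeq2 2, with 4 at an unadjusted p under 0.05 and a median of 0.09. Of 96 genes with symbols of cytosolic ribosomal proteins, a match that also took in S6 kinase genes such as *Rps6ka1* and *Rps6kb1*, edgeR and DESeq2 called 0, with 3 at an unadjusted p under 0.05 and a median of 0.08. Of 91 oxidative phosphorylation genes both tools called 0, 11 had an unadjusted p under 0.05 and the median was −0.27, from 0.04 in the cerebellum and 0.24 in the cerebrum. For 13 mitochondrially encoded genes both tools called 0, none had an unadjusted p under 0.05 and the median was 0.49, from −0.06 and −0.72.

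The summed level of granule cell genes was lower in HD cerebellar IPs. Summed over 23 of them, control cerebellar IPs held 22079, 19643, 21795, 22226 and 17432 CPM, and HD ones 15275 to 17730 CPM (median 15948). Control mouse 5 was below HD mouse 4, and the groups otherwise were apart. The most abundant was *Cbln3*, a partner of cerebellin-1, at 5046, 4693, 4653, 4434 and 3612 CPM in controls and 2465 to 2733 CPM in HD mice (median 2599). *Cbln3* fell by 0.80 in the cerebellum (adjusted p = 0.000532), *Cbln1* by 0.62 (adjusted p = 0.0350) and *Neurod1* by 0.86 (adjusted p = 0.0131). *Calb2*, also on this list, had higher levels in HD mice by median, 2051 against 1342 CPM. With *Grm4*, 4 of the 23 fell there, 9 had an unadjusted p under 0.05 and the list's median was −0.18. Over all genes in the cerebellum 2.09% were called, 2082 of 13487 had an unadjusted p under 0.05 and the median was −0.01. In the regional difference *Grm4* was the 1 call of the 23 by edgeR, DESeq2 called 2, 5 had an unadjusted p under 0.05 and the median was −0.17. Over all genes 0.224% were called by edgeR, 1294 of 14264 had an unadjusted p under 0.05 and the median was 0.03. In cerebral IPs the sum was 3324 to 4019 CPM in controls and 3114 to 4608 CPM in HD mice. Whether a smaller share of granule cell RNA takes part in the cerebellar results was not tested.

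In cerebellar IPs, the summed markers of other cells were lower than those of granule cells. For the counts below, edgeR called 0.224% of all genes in the regional difference. Of 14264 genes 1294 had an unadjusted p under 0.05, and the median was 0.03. Of 15 thalamic genes 0 were called in the regional difference by edgeR or DESeq2, with 1 at an unadjusted p under 0.05, and their cerebellar sum was 1685, 1693, 2182, 1934 and 1878 CPM in controls against 2089 to 2956 CPM in HD mice (median 2386). Most of that was *Calb2*, with medians of 1342 and 2051 CPM, which is also on the granule cell list. Its cerebellar effect of 0.50 did not pass (edgeR's adjusted p = 0.0799). Of 10 genes of unipolar brush cells and deep nuclei, 14 cortical genes and 12 Purkinje cell genes 0 were called by either tool and 0 had an unadjusted p under 0.05, with medians of −0.50, 0.01 and −0.06. Of 12 GABAergic genes 0 were called by either tool, 2 had an unadjusted p under 0.05 and the median was −0.00, with *Dlx5* and *Dlx6* under 0.1 CPM in the cerebellum. Purkinje cell genes summed to 1224 to 2141 CPM in control (median 2074) and 1174 to 2719 CPM in HD cerebellar IPs (median 1563), and *Itpr1* was the most abundant of them. Astrocyte genes summed to 377.6 to 747.1 CPM in control (median 529.4) and 310.2 to 801.4 CPM in HD cerebellar IPs (median 489.4). In cerebral IPs some sums were lower in HD mice by median, with overlapping groups, at 1039 CPM in controls and 873.3 CPM in HD mice for Purkinje cell genes, 744.9 and 557.5 CPM for astrocyte genes and 573.3 and 423.9 CPM for oligodendrocyte genes. The cerebral sum of GABAergic genes was higher in HD mice by median, at 234.6 CPM in controls and 246.7 CPM in HD mice, with overlapping groups. For glial and vessel lists 0 genes were called in the regional difference by edgeR or DESeq2, with 2 of 12 astrocyte, 0 of 14 oligodendrocyte, 1 of 12 microglial and 0 of 11 endothelial genes at an unadjusted p under 0.05 and medians of 0.07, 0.48, 0.62 and 0.58. Of 12 *Hox* genes tested, markers of the hindbrain and spinal cord, 0 were called by either tool, 0 had an unadjusted p under 0.05 and the median was −1.74, and 8 of 18 on that list had medians under 0.1 CPM. The cerebral sum of the *Hox* list was 1.61, 4.67, 0.321, 32.4, 21.9 and 46.85 CPM in control mice 1 to 6 (median 13.3). In HD mice it was 8.89 to 43.5 CPM (median 27.9). The part of these cells in the results was not tested.

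Total RNA of homogenates of the vGluT2 line, in 14 libraries, was also tested for a difference of the HD effect between regions. Only control mice 4, 5 and 6 and HD mice 3 and 6 gave both regions, so these libraries are not all paired within mice. There were 4 control and 4 HD cerebellar and 3 control and 3 HD cerebral libraries. edgeR called 7478 of 14908 genes (50.2%), 3752 higher and 3726 lower. That difference ran with transcript length, as its median fell from 0.61 in the shortest of 4 classes of exonic length to −0.92 in the longest. In the IPs the same medians went from −0.11 to 0.14. Those of the HD effect alone went from −0.03 to 0.01 in cerebellar and from 0.11 to −0.11 in cerebral IPs. The IP calls in the regional difference were 1 higher and 5 lower in the shortest class, and 6 higher and 1 lower in the longest. The longest class took 28.7 to 29.5% of counts in control and 21.1 to 23.4% in HD cerebellar total RNA, but 27.2 to 32.1% and 27.4 to 33.6% in the IPs. HD cerebellar total RNA also had fewer genes detected, 20096 to 20822 against 21536 to 22397 in controls. Genes that do not code for protein took 7.00 to 9.12% of its counts, against 3.83 to 6.54% in controls. The part of length in the IP calls, and of length and these measures in the total RNA result, was not tested. Of the 32 genes called in the IPs, 16 were called in total RNA, a share near that background, and 14 of them had the same sign. *Ccnd1* was at 28.2, 28.9, 29.8 and 28.3 CPM in control cerebellar total RNA and at 85.5, 92.6, 109.8 and 113.9 CPM in HD, so the groups were as far apart as in the IPs. Its regional difference in total RNA was 1.82 (edgeR's adjusted p = 0.00196). *Igfbp5* had −1.40 there, *Otof* 1.68, *Zfpm1* 1.19 and *Clstn2* −0.86, each called by edgeR. *Cplx3* with −0.07 and *Atp2b4* with 0.14 were not called, and *Cdh20* with −1.33 and *Nav3* with −1.92 were called the other way.

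**Figure D4:**
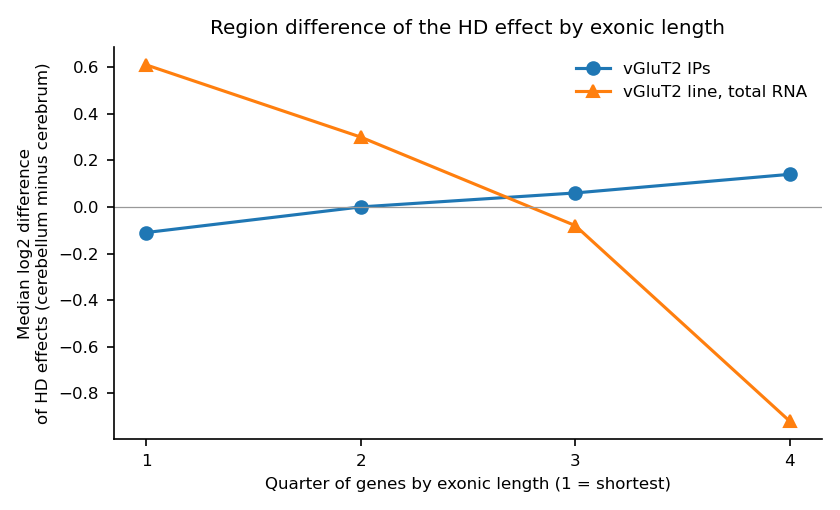
Median log2 difference of the HD effect between regions (y axis) in 4 classes of exonic length, 1 being the shortest (x axis), in the IPs and in total RNA. The IP medians lie between −0.11 and 0.14, and those of total RNA run from 0.61 down to −0.92.

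The same question was put to the inhibitory neurons of the Gad2 line, with 24 IPs, as a 3-way term for the regional difference in vGluT2 minus that in Gad2 IPs. edgeR called 3 of 14489 genes (0.0207%), among them *Zfpm1*, upward, and *Clstn2*, downward, with 963 at an unadjusted p under 0.05 and a median of −0.02. DESeq2 called 15. With TMM over the 47 IPs of both lines, *Zfpm1* was at 21.5 to 37.2 CPM in the 6 control Gad2 cerebellar IPs (median 28.1) and at 22.95 to 33.8 CPM in the 6 HD ones (median 28.4), and its cerebral Gad2 medians were 14.01 and 13.9 CPM. The Gad2 groups of *Zfpm1* overlapped in both regions. *Clstn2* was at 77.8 to 94.8 CPM in control (median 89.7) and 66.6 to 86.8 CPM in HD Gad2 cerebellar IPs (median 79.9), groups that overlapped, and its cerebral Gad2 medians were 82.7 and 72.4 CPM. The 3-way term was 1.55 for *Zfpm1* (SE 0.237, adjusted p = 0.00938) and −1.36 for *Clstn2* (SE 0.229, adjusted p = 0.0209). *Zfpm1* was called in 26 of 27 alternatives and in 23 of 23 fits that left out 1 mouse. *Clstn2* was called in 17 and in 14 of them, with adjusted p from 3.34e-05 to 0.179. *Ccnd1*, with 0.99, did not pass (adjusted p = 0.683). Without vGluT2 control mice 1, 3 and 4 edgeR called 0 genes and 919 had an unadjusted p under 0.05.

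Promoters of the called genes were searched for the letters that CREB, AP-1 and EGR factors bind, which act in transcription driven by neuronal activity. RefSeq promoters (GRCm38.p6, 300 bases around each start) were found for 12 of the 18 genes with a higher and 11 of the 14 with a lower effect in the cerebellum. The letters, on both strands, were TGACGTCA for CREB, TGANTCA for AP-1 and GCGGGGGCG for EGR factors. Of all 32851 promoters, 1.79% held the CREB, 7.81% the AP-1 and 2.91% the EGR letters. In the 17 promoters of the higher genes the AP-1 and the EGR letters occurred once each, both at *Kcnk2*. In the 15 promoters of the lower genes the CREB letters occurred once, at *Clstn2*, and the AP-1 letters once, at *Rprml*. These 4 are shown because they are the matches among the called genes, with the match in capitals. Their coordinates are chr1:189344143-189344442 (minus strand) and chr1:189343304-189343603 (minus strand) for *Kcnk2*, chr9:98033118-98033417 (minus strand) for *Clstn2* and chr11:103649259-103649558 (plus strand) for *Rprml*. A match is a description of these letters.
Kcnk2 AP-1: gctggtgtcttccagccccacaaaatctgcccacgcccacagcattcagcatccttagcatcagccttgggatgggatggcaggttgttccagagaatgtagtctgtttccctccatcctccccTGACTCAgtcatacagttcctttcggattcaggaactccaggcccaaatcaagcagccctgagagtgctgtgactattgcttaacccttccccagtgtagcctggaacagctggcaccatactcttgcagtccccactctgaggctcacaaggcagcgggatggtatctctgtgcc
Kcnk2 EGR: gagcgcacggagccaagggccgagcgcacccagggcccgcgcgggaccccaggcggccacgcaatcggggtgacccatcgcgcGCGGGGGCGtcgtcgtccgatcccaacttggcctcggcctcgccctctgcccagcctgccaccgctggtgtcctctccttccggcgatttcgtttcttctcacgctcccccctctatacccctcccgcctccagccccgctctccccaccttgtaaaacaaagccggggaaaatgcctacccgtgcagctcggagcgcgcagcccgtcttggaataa
Clstn2 CREB: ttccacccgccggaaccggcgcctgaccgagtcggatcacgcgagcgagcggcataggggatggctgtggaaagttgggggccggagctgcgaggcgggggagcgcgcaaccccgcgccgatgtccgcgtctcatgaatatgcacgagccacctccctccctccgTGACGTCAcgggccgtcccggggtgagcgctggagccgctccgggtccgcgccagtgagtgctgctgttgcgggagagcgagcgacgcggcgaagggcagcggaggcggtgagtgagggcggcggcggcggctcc
Rprml AP-1: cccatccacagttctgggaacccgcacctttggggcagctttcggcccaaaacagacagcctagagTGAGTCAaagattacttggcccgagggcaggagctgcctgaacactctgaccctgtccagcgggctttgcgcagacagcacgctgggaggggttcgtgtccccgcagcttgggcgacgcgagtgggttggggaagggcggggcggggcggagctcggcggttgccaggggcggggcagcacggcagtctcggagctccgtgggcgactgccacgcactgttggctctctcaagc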

How the data were processed

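RNA of RiboTag IPs and of total homogenates was sequenced, and the authors aligned reads with STAR and quantified genes with Salmon on GRCm38.p6. The values are the deposited expected counts of 55401 genes for 106 libraries. They were rounded to whole numbers. Protein-coding genes of GENCODE M21 with a mean count above 10 in the libraries of a fit were tested.

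Tests used R 4.3.3 with edgeR 4.0.16 (quasi-likelihood, TMM), limma 3.58.1 (voom) and DESeq2 1.42.0, and tables and plots Python 3.11.15 with matplotlib 3.10.9, pandas 2.3.3 and numpy 2.4.6. The regional difference was fitted in edgeR on the 22 IPs of 11 mice with the mouse as a block. The average over regions was fitted in limma voom with the mouse as a random effect (within-mouse correlation 0.254). Regions alone and the 3-way term were fitted in edgeR, and p-values were adjusted by Benjamini-Hochberg over all genes tested. CPM are TMM-scaled, and a prior count of 2 was added for within-mouse log2 differences.

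Pairing comes from the number before the dot in the library descriptions. It was checked by correlating, over 13771 genes, the deviations of the 2 IPs of a mouse from their group means. The paired IPs had a median r of 0.05 in controls, where 2 of 5 cerebellar IPs were most like the cerebral IP of their own number, and of 0.225 in HD mice, where 4 of 6 were. Cerebellar IPs were most like the cerebellar total RNA of their own number in 1 of 3 control and 1 of 4 HD mice, with median r of 0.16 and 0.085. Without the replicate block edgeR called 45 genes.

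Genes were named by a rule: up to 10 calls with the largest regional difference in each direction whose within-mouse differences did not overlap, calls with opposite effects in the regions, cerebral calls, genes called in the average with the same sign in both regions and no overlap of groups, 3-way calls, genes the study named and called members of the lists. The members and lists were chosen with earlier results of these data known. Alternatives were DESeq2, other scalings and filters, all gene types, a random mouse effect, no block, sex genes as a covariate, and leaving out each mouse. The other lines' IPs were not used here, except those of Gad2 and, for sex genes, PV and SST. Some genes that were called are not reported here.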

Additional observations from a re-analysis of the deposited data

Results flagged for a closer look

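Of 108 groups of library values tested for a library far from the rest of its group, 12 had one, and chance gives about 1 in 20. HD mouse 6 accounted for 6 of these. Its cerebellar IP had 16122 genes detected and 8.31% of counts outside protein-coding genes, and its cerebral IP had 14443 genes, 18.2%, 3.52 CPM of *Ccnd1* and 101.7 CPM of *Igfbp5*. *Slc17a6* was far above its group at 108 CPM in the cerebellar IP of control mouse 5 and at 67.9 CPM in that of HD mouse 5. Among cerebral IPs, control mouse 2 had 68022491 counts (summed after rounding each gene), control mouse 3 had 220 CPM of *Igfbp5*, control mouse 6 had 6.62% of counts outside protein-coding genes, and HD mouse 1 had 2873 CPM of *Slc17a7*.

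The HD effect differed between regions, by the test of that difference, for genes named by the rule. Higher in the cerebellum were *Ccnd1* (2.06), *Otof* (1.49), *Zfpm1* (1.44), *Fam163b* (1.21), *Atp2b4* (1.21), *Spef1* (1.20), *Gpr153* (1.20), *Kcnk2* (1.18) and *Cdh20* (1.14). Lower were *Cplx3* (−2.06), *Rprml* (−1.88), *Stum* (−1.85), *Clstn2* (−1.40), *Igfbp5* (−1.36), *Tppp3* (−1.23), *1500009L16Rik* (−1.22), *Reep6* (−1.21), *Dusp5* (−1.21) and *Grm4* (−1.09). The regional difference itself differed between vGluT2 and Gad2 neurons for *Zfpm1* (1.55) and *Clstn2* (−1.36). In total RNA the effect differed between regions for 7478 genes.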

How the results depend on the processing

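The 32 genes of the regional difference kept their sign in all 23 alternatives, while their number changed. DESeq2 gave 221 (107 higher, 114 lower), limma voom with a random mouse effect 87 (47 and 40) and *Xist* as a covariate 12 (6 and 6). Leaving out 1 mouse gave 11 to 32: 21 without control mouse 1, 19 without control 2, 16 without control 3, 18 without control 4, 14 without HD mouse 1, 12 without HD 3, 15 without HD 4 and 11 without HD 5. In these fits 10 of the 32 were called each time. Without control mice 1, 3 and 4, chosen after seeing the data, 1 gene was called. The other alternatives were within 1.5 times of the count, such as 45 without the replicate block, with 28 of the 32 among them.

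In the cerebellum DESeq2 called 663 genes (304 and 359), and a block by replicate number across genotypes gave 109 (45 and 64). Leaving out 1 library gave 154 to 275: 154 without control 1, 178 without control 2, 168 without control 3, 183 without control 4, 155 without HD 1 and 177 without HD 5. In the cerebrum DESeq2 called 25 genes (7 and 18) and no filter gave 1, and leaving out 1 library gave 0 to 1, with 1 without control 5 and 1 without HD 6.

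The average over regions gave 49 genes (20 and 29) in edgeR on counts summed by mouse, and, chosen after seeing the data, 242 (129 and 113) in edgeR with no block and 40 (13 and 27) without control mice 1, 3 and 4. Leaving out 1 mouse gave 40 to 195: 195 without control 1, 40 without control 2, 52 without control 3, 80 without control 6, 65 without HD 1, 70 without HD 4 and 61 without HD 5. The 3-way term gave 15 genes (11 and 4) in DESeq2, 6 (3 and 3) with no block and 0 without vGluT2 control mice 1, 3 and 4, where edgeR had 919 at an unadjusted p under 0.05. Leaving out 1 mouse gave 2 to 6, with 6 without vGluT2 control 3. In total RNA all alternatives were within 1.5 times, from 5275 to 8498. The cause of these changes was not tested. With a median SE of 0.220 for the regional difference, small differences could not be detected, and the uncertain control pairs limit what the calls rest on.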
